A study of Mus musculus with 18 samples.

Results

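Expression in the cerebellum of the 3 wild-type littermates from the Sca6 CtmKO line (the Ctm wild types) was set against that of the 6 wild-type littermates from the MPI 11Q and MPI 118Q knock-in lines. These are 9 of the 18 arrays of the series, taken by their labelled group and by no measured value. The mutant mice of the series carry alleles of Cacna1a, the gene of the pore-forming subunit of the Cav2.1 calcium channel, and were made to study spinocerebellar ataxia type 6. All groups are of strain C57BL/6, and the wild types of every line are labelled as littermates of homozygous mutants: Sca6 CtmKO/CtmKO, MPI 118Q/118Q or MPI 11Q/11Q. The labels say no more on these alleles or on the sex of the mice. An age of 6 weeks is given for the MPI 118Q/118Q and CtmKO/CtmKO mice and not for the 11Q line. Each group held 3 arrays, and the labels call them replicates without saying how independent they were, so the p-values measure the spread between these samples.

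The cerebellar cortex is built from a few cell types: Purkinje cells, which carry its output and hold most of its Cav2.1, the very numerous granule cells, inhibitory interneurons, and glia, among them the Bergmann glia that ensheath Purkinje cell synapses. Wild-type littermates of lines kept on one strain are the controls of their own line, and a difference between them involves none of the mutant alleles by label. It can still hold anything that distinguishes the lines or the handling of their samples, and in this design line and handling cannot be told apart.

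Values are log2 signals of Affymetrix probe sets, each a group of short probes for 1 transcript, and a difference of 1 on this scale is a doubling. Each of 18193 genes is represented by its brightest probe set, judged on the mean of all 18 arrays. A gene is called when limma's moderated test, adjusted by Benjamini-Hochberg over all genes, gives a p below 0.05. All 9 arrays carried the markers of cerebellum at high signal: Pcp2 and Calb1 of Purkinje cells ran from 10.30 to 10.86 and from 10.46 to 10.79, and Gabra6 of granule cells from 10.15 to 10.54. The arrays correlated with a median r of 0.9888 between Ctm and knock-in wild types, against 0.9935 between the 11Q and the 118Q wild types.

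Control readings separated the lines. The array's control probe sets for 18S ribosomal RNA, which has no poly-A tail, read 5.95, 5.84 and 5.27 on Ctm wild-type arrays 1, 2 and 3 and 9.64 to 10.57 on the 6 knock-in wild types. The difference was -4.50, with an exact permutation p of 0.0119 (two-sided), the smallest that 3 against 6 arrays allow, and an adjusted p of 0.0619 over 13 array measures. The Ctm knockout arrays were at 5.71 to 6.54, beside 8.54 to 10.36 on the knock-in mutants, so the whole Ctm line was low. The poly-A control probe sets, for bacterial transcripts that can be spiked in before labelling, were also lower, at 2.16, 2.12 and 2.51 against 2.80 to 4.27 (difference -1.33, exact permutation p = 0.0119, adjusted p = 0.0619). The Ctm knockouts were at 1.99 to 2.18 and the knock-in mutants at 2.41 to 4.56, so that the lowest knock-in mutant lay below Ctm wild-type array 3. The hybridisation controls, added after labelling, were at 7.98 ± 0.038 (SD, n = 3) and 7.89 ± 0.16 (SD, n = 6), with an exact permutation p of 0.357. The gap between 3' and 5' control probe sets, averaged over Gapdh and beta-actin as a measure of RNA integrity, was 0.61 ± 0.058 (SD, n = 3) and 0.59 ± 0.099 (SD, n = 6), with an exact permutation p of 0.774. The same gap was lower in the Ctm wild types for the transferrin receptor controls (difference -0.27, exact permutation p = 0.0238, adjusted p = 0.0619). It was 0.09, -0.01 and -0.46 on the Ctm arrays against 0.003 to 0.28 on the 6. Without Ctm array 3 the difference was -0.10 (exact permutation p = 0.179). For pyruvate carboxylase the gap was -0.18 apart (exact permutation p = 0.0833, adjusted p = 0.1354). The part of these control readings in the gene differences below was not tested.

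**Figure D1:**
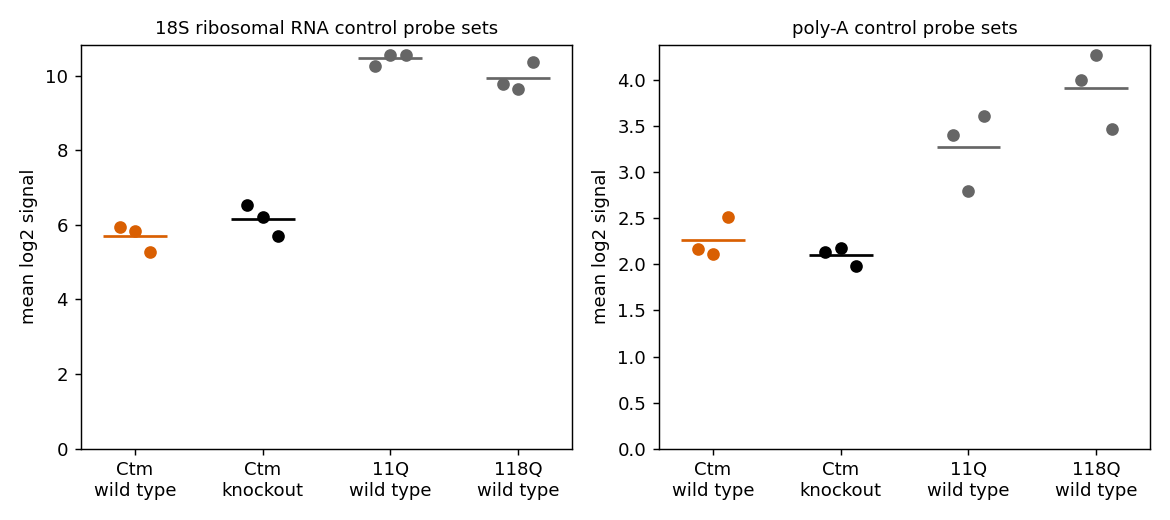
Mean log2 signal of the 18S ribosomal RNA control probe sets (left) and of the poly-A control probe sets (right), with 1 point per array, a bar for the mean of the 3 arrays of a group, and axes that start at 0. In both panels the 6 arrays of the Ctm line, wild types and knockouts, lie below all 6 wild types of the knock-in lines.

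Of the 18193 genes, 2939 were called between the Ctm and the 6 knock-in wild types, which is 16.2%: 1608 lower in the Ctm wild types (8.84%) and 1331 higher (7.32%). In 3210 genes (17.6%) the 3 Ctm arrays all lay outside the range of the 6, with 1533 below it (8.43%) and 1677 above it (9.22%), and 2272 genes met both conditions. The lower genes moved further. Among called genes 158 were more than 1 lower and 13 more than 1 higher, and 7 were more than 2 lower against 0 higher. The median difference was -0.51 over the called lower genes and 0.04 over all genes. The count depended on single arrays: it was 1765 without Ctm array 2 and 1640 without Ctm array 3, and 1861 when the 9 wild-type arrays were fitted alone. Reference arrays mattered too, with 2313 calls without array 3 of the 11Q wild types and 2177 without array 3 of the 118Q wild types.

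Against each knock-in line by itself the Ctm wild types differed in 2250 genes for 11Q (12.4%) and 1648 for 118Q (9.06%). For 11Q 987 genes were higher (5.43%) and 1263 lower (6.94%), and for 118Q 606 were higher (3.33%) and 1042 lower (5.73%). In all, 1296 genes were called with the same sign in both, although both comparisons share the Ctm arrays. Without array 3 of the 11Q wild types the first count was 1005, and without array 3 of the 118Q wild types the second was 553. Between the 11Q and the 118Q wild types limma called 0 genes (0.0%), with 753 at an unadjusted p below 0.05 and 1 or 2 called in 7 of the other settings tried. The 2 knock-in lines' wild types thus gave fewer calls between themselves than either gave against the Ctm wild types.

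Many splicing, RNA-binding motif and RNA decay genes were lower in the Ctm wild types, and their shares are given beside the 8.84% lower over all genes, with no test of the lists. That share takes in dim genes. It was 0.275% in the dimmest quintile of genes by mean level and 14.8% in the brightest. Neither these lists nor those below were matched for level. Of 89 splicing factor genes 28 were called lower (31.5%) and 2 higher, of 34 RNA-binding motif (Rbm) genes 11 lower (32.4%) and 0 higher, and of 41 genes of RNA decay and surveillance 15 lower (36.6%) and 4 higher. Their median differences were -0.10, -0.21 and -0.07, beside 0.04 over all genes. On each of the 3 Ctm arrays the splicing and Rbm medians lay below those of all 6 reference arrays, at -0.11, -0.12 and -0.11 for splicing factors and -0.27, -0.18 and -0.16 for Rbm genes. Without Ctm array 3 the counts of lower genes were 21, 6 and 9, while the count over all genes fell to 5.81%. With a mean over each gene's probe sets, 16 splicing factors were lower and 7 higher.

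Taf15, an RNA-binding protein of the FET family, read 3.21, 3.89 and 3.10 on the Ctm arrays against a lowest of 4.70, a median of 4.97 and a highest of 5.52 on the 6. All 3 Ctm arrays were below all 6, with a difference of -1.62 (SE 0.14, limma adjusted p = 5.37e-06). Pnn, which encodes the splicing-linked protein pinin, stood at 6.65, 5.96 and 5.76 against 7.23 to 7.36 (difference -1.16, SE 0.14, limma adjusted p = 8.22e-05), and all 3 of its probe sets were called lower. Luc7l2, a partner of the U1 snRNP, was 1.05 lower with 6 of its 8 probe sets called, but 2 of those 8 had the opposite sign. Prpf39, a U1-associated splicing factor, divided the Ctm arrays: array 1 read 6.14, inside the reference range of 6.04 to 6.60, and arrays 2 and 3 read 4.01 and 4.27. Its 3 probe sets were all called lower (difference on the brightest -1.57, SE 0.29, limma adjusted p = 0.00177).

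Among the nuclease and surveillance genes, Smg1, the kinase that acts on UPF1 in nonsense-mediated decay, stood at 7.72, 7.67 and 7.13 against 8.13 to 8.43. Its partner gene Upf2 stood at 5.68, 5.05 and 5.15 against 5.93 to 6.46, and Dis3, a catalytic subunit of the exosome, at 3.51, 3.45 and 3.55 against 3.82 to 4.20. The groups did not overlap in any of these genes, and the differences were -0.78 (SE 0.12), -0.85 (SE 0.14) and -0.51 (SE 0.08), with limma adjusted p-values of 0.00034, 0.000536 and 0.000626. Of the 10 SR protein genes, which bind exonic splicing enhancers, 3 were lower and 0 higher. Srsf11 read 7.96, 7.49 and 7.31 against 8.18 to 8.30, a difference of -0.67 (SE 0.10, limma adjusted p = 0.000428). The hnRNP genes, whose products coat nascent transcripts, were divided, with 4 lower (21.1%) and 3 higher (15.8%) of 19. DEAD and DEAH box helicases, which unwind RNA, gave 7 lower (13.7%) and 2 higher (3.92%) of 51, with a list median of 0.02. In the brightest quintile of all genes by mean level 14.8% were lower. Hnrnph1 was 0.48 lower on its brightest probe set, but the mean of its 2 probe sets was level at 4.94e-05.

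Some noncoding transcripts were lower too. Of 15 small nucleolar RNA host genes, whose introns release guide RNAs for ribosomal RNA modification, 5 were lower (33.3%, beside 8.84% of all genes) and 0 higher, a count that stayed at 5 when any Ctm array was left out. Gas5 read 7.39, 6.88 and 6.80 on the Ctm arrays against 7.52 to 7.71 (difference -0.61, SE 0.11, limma adjusted p = 0.00129), with all 4 probe sets called. Snhg14, the long host transcript of the imprinted Prader-Willi region, read 7.57, 6.45 and 5.94 against 7.35 to 8.11, so that array 1 lay inside the range (difference -1.21, SE 0.25, limma adjusted p = 0.00378). Among 14 other long noncoding RNAs 3 were lower (21.4%), and the list medians were -0.18, -0.05 and -0.42 on the Ctm arrays, of which the second lay inside the reference range of -0.09 to 0.18. Meg3, the maternally expressed transcript of the Dlk1 imprinted domain, read 8.60, 8.76 and 7.63 against 9.32 to 9.58 (difference -1.12, SE 0.17, limma adjusted p = 0.000354). All 11 of its probe sets had the negative sign and 9 were called. Neat1, the scaffold of paraspeckles, was 0.90 lower on 1 probe set, and its second probe set had the opposite sign.

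Chromatin regulators gave 23 lower (29.1%) and 3 higher (3.80%) of 79, beside 8.84% lower and 7.32% higher over all genes. Their list medians were -0.17, -0.10 and -0.15 on the 3 Ctm arrays. The reference arrays had medians of -0.12 to 0.08, so that Ctm array 2 lay inside their range. With the mean of probe sets the counts were 17 lower and 5 higher and the list median was -0.02. Atrx, an X-linked remodeller of heterochromatin, read 7.39, 6.05 and 6.19 against 7.77 to 8.17, a difference of -1.45 (SE 0.21, limma adjusted p = 0.000262). Bptf, a subunit of the NURF remodelling complex, read 7.34, 7.56 and 7.10 against 7.83 to 8.30 (difference -0.79, SE 0.12, limma adjusted p = 0.000326). Averaged over probe sets neither was called, and only 2 of the 4 Bptf probe sets had the negative sign. Of 53 Mediator and TATA-box factor genes 8 were lower (15.1%) and 0 higher, with Taf15 counted in this list too. That share lower is close to the 14.8% in the brightest quintile of all genes by mean level. Genes grouped by the letters of their symbols, in the 51 groups of at least 30 genes, added the Cep genes of centrosomal proteins, with 12 lower (32.4%) and 0 higher of 37. The Usp genes, which encode deubiquitinating enzymes, gave 13 lower (25.5%) and 1 higher (1.96%) of 51.

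**Figure D2:**
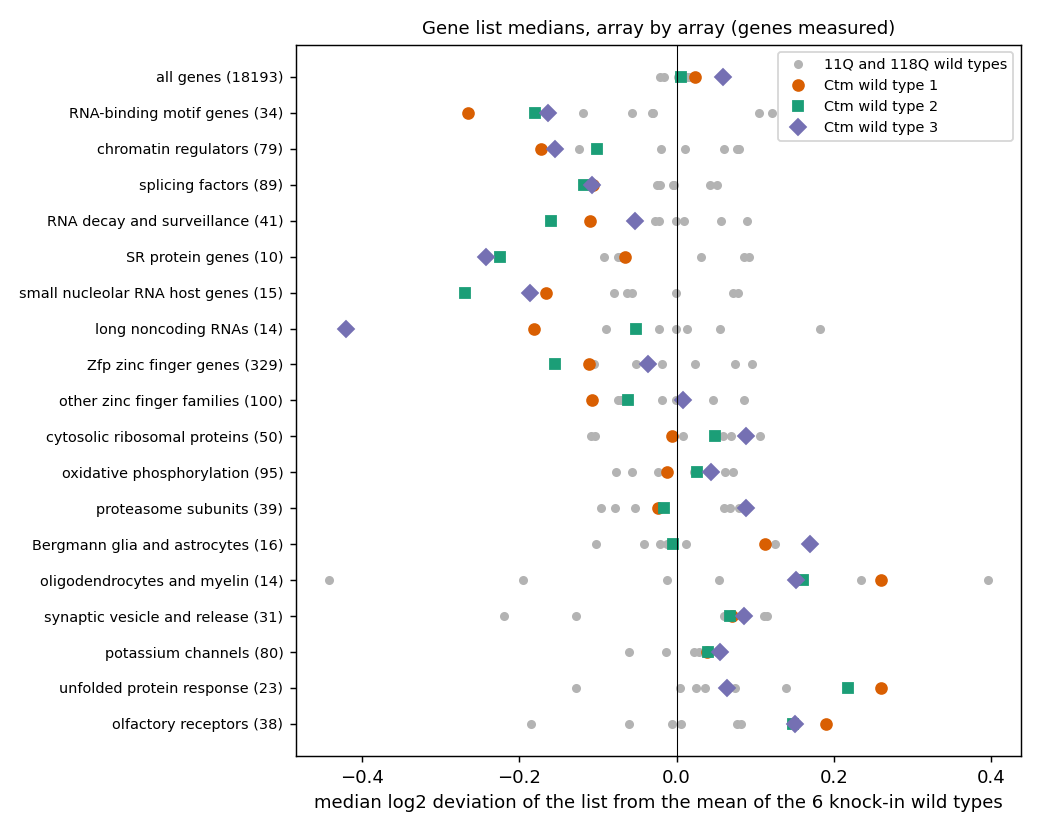
Median log2 deviation of each gene list from the mean of the 6 knock-in wild types, with 1 coloured marker per Ctm wild-type array, 1 grey point per knock-in wild-type array, and the number of genes measured in brackets. Each grey point is set against the mean of the other knock-in wild types. All 3 Ctm arrays lie left of every grey point for RNA-binding motif genes, splicing factors, RNA decay genes and small nucleolar RNA host genes, and right of every grey point for olfactory receptors.

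Zfp zinc finger genes, which mostly encode DNA-binding repressors of the KRAB type, gave 71 lower (21.6%) and 13 higher (3.95%) of 329. Over all genes 8.84% were lower and 7.32% higher, and in the brightest quintile by mean level 14.8% were lower. The count of lower genes was 39 without Ctm array 2 and 47 without Ctm array 3. The list median was -0.12, and on Ctm array 3 it was -0.04, within the reference arrays' range of -0.11 to 0.10. Other zinc finger families gave 20 lower and 9 higher of 100. Many Zfp genes are near copies of one another, so their probes may read more than 1 of them and the genes are not separate observations. Zfp711, an X-linked member, read 4.09, 2.15 and 2.54 against 4.68 to 5.36 (difference -2.06, SE 0.27, limma adjusted p = 0.000159), and Zfp950 5.06, 3.93 and 3.48 against 5.85 to 6.47 (difference -1.92, SE 0.24, limma adjusted p = 8.74e-05).

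The lower Zfp genes were most crowded on chromosome 17. There 18 measured genes in a row, from Zfp160 to Zfp946, are all Zfp genes, and 14 of them were called lower, against 57 lower of the 311 Zfp genes elsewhere (18.3%). This stretch was picked out after the values were seen, so its count is a description. Among 17741 windows of 15 neighbouring measured genes, the window from Zfp51 to Zfp946 held 12 lower genes, and the next window, on chromosome 2 from Cops2 to Ap4e1, held 8.

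In this run the low signal came from 2 of the 3 arrays. The median deviation of the 18 genes from the reference mean was -0.27 on Ctm array 1, -1.98 on array 2 and -1.88 on array 3. The 3 Ctm knockouts had medians of -0.13 to -0.08. The 6 reference arrays, each set against the mean of the rest, had medians of -0.40 to 0.34. Array 1 lay inside the reference range for 10 genes and below it for 8, and arrays 2 and 3 were each below it for 16. Zfp946 read 5.19 on array 1 and 2.13 and 2.95 on arrays 2 and 3, against 5.32, 5.60 and 5.87 as lowest, median and highest of the 6 (difference -2.19, SE 0.39, limma adjusted p = 0.00123). Zfp758 read 3.46, 1.19 and 1.08 against 3.84 to 4.41 (difference -2.18, SE 0.34, limma adjusted p = 0.000449). Zfp995 read 4.64, inside the range of 4.29 to 4.95, and then 1.76 and 2.04 (difference -1.94, SE 0.40, limma adjusted p = 0.00325). Zfp942 lost its call without Ctm array 2, without Ctm array 3 and when the 9 arrays were fitted alone. Zfp54, Zfp53, Zfp983 and Zfp820 were not called, with differences of 0.21, -0.12, -0.38 and -0.23.

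**Figure D3:**
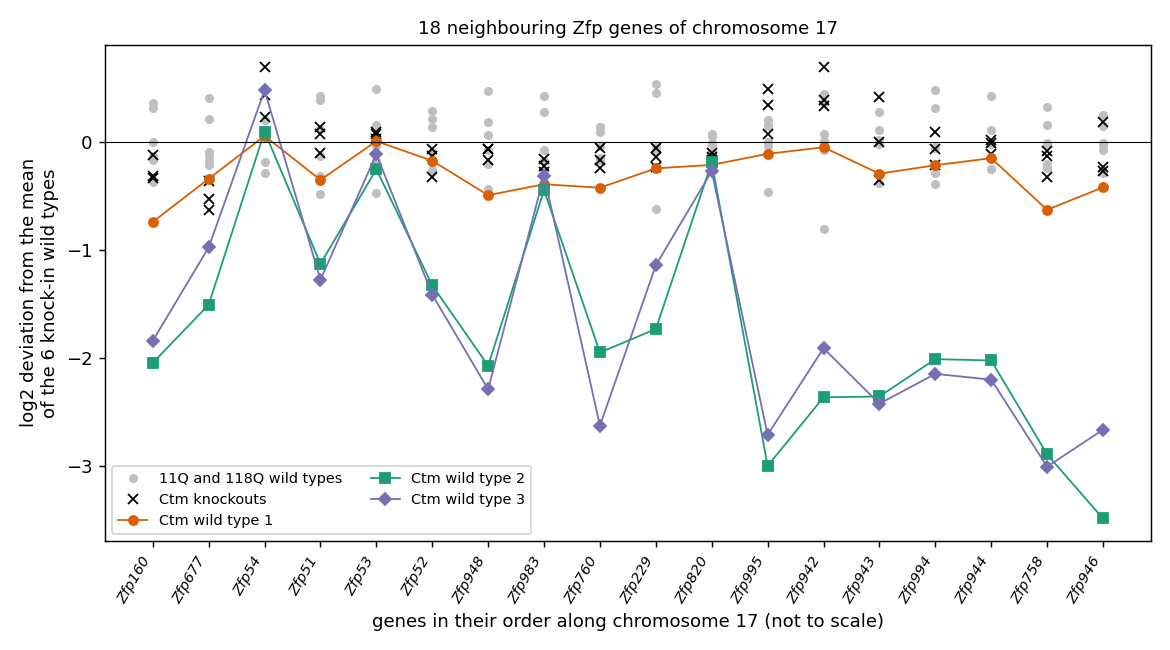
Log2 deviation from the mean of the 6 knock-in wild types for the 18 neighbouring Zfp genes of chromosome 17, in their order along the chromosome. Lines with markers are the 3 Ctm wild-type arrays, crosses the Ctm knockouts and grey points the knock-in wild types. Arrays 2 and 3 drop by up to 3.49 and 3.01, while array 1 stays within 0.74 of the reference mean.

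Because these neighbours were low together, the bases around their starts were compared. RefSeq promoter windows of GRCm38.p6 were matched for 13 of the 14 lower genes, each of 300 bases around the gene's start. The longest run of letters shared by at least 5 of them was CACGTGACCGGAACCG, searched on both strands, which begins with the palindrome CACGTG. It stood in the windows of Zfp758, Zfp942, Zfp943, Zfp944 and Zfp946 and in no other of 27025 promoters (0.0185% hold it). The windows of Zfp942 and Zfp943 overlap head to head by 194 bases and those of Zfp758 and Zfp944 by 162, so the 5 genes give 3 separate copies of the sequence. CACGTG alone stood in 6 of the 13 windows and in 7.24% of all promoters. The copies are shown 5′ to 3′ on the gene's strand, with the shared run in capitals, in windows at chr17:21962450-21962534 (minus strand) for Zfp942, chr17:22361386-22361470 (minus strand) for Zfp944 and chr17:22424132-22424216 (plus strand) for Zfp946.
Zfp942: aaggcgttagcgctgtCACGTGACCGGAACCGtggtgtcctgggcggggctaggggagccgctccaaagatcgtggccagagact
Zfp944: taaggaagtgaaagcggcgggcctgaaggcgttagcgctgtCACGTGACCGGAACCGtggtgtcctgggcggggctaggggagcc
Zfp946: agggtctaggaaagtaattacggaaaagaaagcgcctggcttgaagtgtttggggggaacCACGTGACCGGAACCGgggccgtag
The bases either side of the run are alike in Zfp942 and Zfp944 and differ in Zfp946. A match of letters is a description of related genes, and 8 of the 13 lower genes with a window did not hold the run.

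The other large falls were spread over functions. Fut9, the fucosyltransferase that makes the Lewis x carbohydrate of neural cells, had the greatest difference, at -2.62 (SE 0.45, limma adjusted p = 0.000921). It read 7.46 on Ctm array 1 and 3.95 and 4.67 on arrays 2 and 3, against 7.76, 8.02 and 8.13 as lowest, median and highest of the 6. Ctm knockouts read 7.66 to 7.81, beside those of the 6. Its other 2 probe sets were not called. They were also lowest on arrays 2 and 3, but array 1 lay above all 6 on both. It read 6.79 against 5.28 to 6.36 on 1 of them and 5.23 against 3.46 to 4.23 on the other. Sycp1, a meiotic synaptonemal complex gene, read 3.67, 1.28 and 1.95 against 4.01 to 4.62, and Phip, a bromodomain protein gene, 6.44, 4.65 and 4.80 against 6.95 to 7.26. These differences were -2.04 (SE 0.31) and -1.85 (SE 0.25), with limma adjusted p-values of 0.0004 and 0.000196, and in each the 3 arrays were ordered with array 1 nearest the reference.

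Other falls also had all 3 Ctm arrays below the range of the 6, with array 1 further from it than in Fut9, Sycp1 and Phip. Amy1, an amylase gene, read 3.20, 2.50 and 2.11 against 4.40 to 5.37 (difference -2.29, SE 0.20, limma adjusted p = 5.37e-06). Cap1, which recycles actin monomers, read 4.03, 3.97 and 4.13 against 5.03 to 6.27, and the Ctm knockouts read 3.75 to 3.92. Hypk, which encodes a huntingtin-interacting chaperone, read 1.36, 1.80 and 1.73 against 2.73 to 3.67, and the knockouts 2.10 to 2.64. Their differences were -1.44 (SE 0.21, limma adjusted p = 0.000275) and -1.45 (SE 0.18, limma adjusted p = 8.48e-05). Rpl27a, a large-subunit ribosomal protein gene, read 1.89, 2.27 and 2.43 against 3.74 to 4.72 and 2.19 to 2.38 in the knockouts (difference -1.93, SE 0.17, limma adjusted p = 5.37e-06), while its second probe set was level at -0.03. The knockout values share the 6 reference arrays with these differences and are given only side by side.

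Signalling genes of cerebellar neurons were divided. Gria2, the AMPA receptor subunit that makes the channel impermeable to calcium, read 8.05, 7.41 and 6.91 against 8.28, 8.56 and 8.76 as lowest, median and highest, with all 3 probe sets called lower (difference on the brightest -1.06, SE 0.17, limma adjusted p = 0.000516). Gria4 and the kainate subunit gene Grik2 were 0.52 and 0.51 lower, and Gria1 was 0.55 higher, at 7.85, 7.84 and 7.77 against 7.07 to 7.61. Over all genes 8.84% were lower and 7.32% higher. Of 21 glutamate receptor genes 3 were lower (14.3%) and 3 higher (14.3%), and of 11 GABA receptor genes 2 were lower (18.2%) and 0 higher. Of 19 calcium channel subunit genes 1 was called lower (5.26%) and 0 higher. The called gene was Cacna2d1, of an auxiliary subunit, at 6.16, 5.33 and 5.57 against 6.44 to 6.89 (difference -0.95, SE 0.13, limma adjusted p = 0.000225). It was not called with the mean of its 5 probe sets. Cacna1a itself read 6.02, 6.14 and 6.14 against 5.51 to 6.43 (difference -0.03, SE 0.13, limma adjusted p = 0.905) and Cacnb4 9.04, 8.98 and 8.72 against 8.46 to 9.01 (difference 0.11, SE 0.11, limma adjusted p = 0.527). Another Cacna1a probe set was 0.76 lower with a limma adjusted p of 0.00522 over all probe sets.

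The higher genes formed smaller groups with smaller differences. Of 80 potassium channel genes 10 were higher (12.5%) and 1 lower, and of 31 genes of synaptic vesicles and release 6 were higher (19.4%) and 3 lower, beside 7.32% higher over all genes. The first count was 6 and 5, and the second 2 and 3, without Ctm arrays 2 and 3 respectively. Slc17a7, the vesicular glutamate transporter of granule cells, read 6.97, 6.88 and 6.98 against 5.01, 5.72 and 6.30 (difference 1.30, SE 0.23, limma adjusted p = 0.00103). Zic2, a granule cell transcription factor, read 8.40, 8.43 and 8.34 against 7.24 to 7.88 (difference 0.85, SE 0.13, limma adjusted p = 0.00046). Syp, the vesicle protein synaptophysin, was 0.83 higher, a call that was lost without Ctm array 3. Kcnma1, the BK potassium channel gene, read 6.68, 6.82 and 6.61 on its brightest probe set against 5.07 to 5.49 (difference 1.34, SE 0.16, limma adjusted p = 8.48e-05), and 6.82 to 6.90 in the knockouts. Of its other probe sets 1 was called higher and 2 were called lower, at -1.30 and -1.04, and the mean of all 5 differed by -0.06.

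The largest rises were in a repressor and a synaptic adhesion gene. Zbtb7a, a transcriptional repressor, read 6.20, 6.09 and 6.14 on the Ctm arrays and 3.84, 4.59 and 5.34 as lowest, median and highest of the 6 (difference 1.54, SE 0.32, limma adjusted p = 0.00386). Its 2 dimmer probe sets were at 0.07 and 0.08 and were not called. Lrrc4b, a postsynaptic adhesion molecule, read 5.64, 5.45 and 5.81 against 3.06, 4.43 and 4.74 (difference 1.51, SE 0.28, limma adjusted p = 0.00144). In these genes and in Slc17a7, Mapre3 and Tubb4a the 3 Ctm arrays spanned at most 0.36 while the 6 reference arrays spanned 1.29 to 1.68.

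Among glial lists, those of astrocytes and myelin had more higher than lower genes, while oligodendrocyte precursor markers gave 2 higher and 2 lower of 10 and microglia markers 1 and 1 of 22. Of 16 Bergmann glia and astrocyte markers 3 were higher (18.8%, beside 7.32% of all genes) and 0 lower: Gfap, the astrocyte filament gene, at 5.38, 5.60 and 5.37 against 3.94 to 5.12, the glutamate transporter gene Slc1a3 at 9.19, 9.41 and 9.37 against 8.52 to 8.90, and Acsbg1. The differences of Gfap and Slc1a3 were 1.00 (SE 0.19, limma adjusted p = 0.00207) and 0.65 (SE 0.11, limma adjusted p = 0.00102), but 3 of the 6 Slc1a3 probe sets had the opposite sign. Of 14 oligodendrocyte and myelin genes 4 were higher (28.6%) and 1 lower, and 2 were higher and 0 lower without Ctm array 2 or without Ctm array 3. Cldn11, the tight junction protein of myelin, read 7.52, 7.62 and 7.59 against 6.26 to 7.22 (difference 0.86, SE 0.20, limma adjusted p = 0.00671). The myelin list ran from -0.44 to 0.40 on the reference arrays, around the 0.26, 0.16 and 0.15 of the Ctm arrays. Of 23 genes of the unfolded protein response 4 were higher and 0 lower, 20 had a positive difference, and 0 were called without Ctm array 1. Hsp90b1, the chaperone of the endoplasmic reticulum, read 8.76, 8.42 and 8.09 against 7.51 to 8.01 (difference 0.62, SE 0.14, limma adjusted p = 0.00705), highest on array 1. In RNA of whole tissue, more cells of a type and more RNA per cell cannot be told apart.

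Neuronal markers were called in both directions. Of 20 Purkinje cell markers 4 were higher and 2 lower, and of 17 granule cell markers 3 were higher (17.6%) and 2 lower (11.8%), beside 7.32% and 8.84% of all genes. The Purkinje and granule list medians were 0.05 and 0.09. Without Ctm array 3 the count of higher Purkinje markers was 0. Car8, an inhibitor of the IP3 receptor found in Purkinje cells, read 10.59, 10.70 and 10.72 against 10.02 to 10.37 (difference 0.43, SE 0.12, limma adjusted p = 0.0164), and Foxp2 was 0.85 lower on its brightest probe set. Of 13 interneuron markers 1 was higher and 1 lower. Endothelial and pericyte markers gave 1 lower of 20. The hindbrain list, of genes of the tissue that adjoins the cerebellum, gave 3 higher and 0 lower of 19.

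Classes of housekeeping genes are set beside the 7.32% higher and 8.84% lower of all genes. Cytosolic ribosomal proteins gave 4 higher (8.0%) and 1 lower (2.0%) of 50, and mitochondrial ribosomal proteins 0 higher (0.0%) and 5 lower (6.58%) of 76. Oxidative phosphorylation gave 6 higher (6.32%) and 5 lower (5.26%) of 95, and proteasome subunits 4 (10.3%) and 3 (7.69%) of 39. Solute carriers gave 31 and 23 of 321 and Tmem genes 21 and 19 of 215. The 38 olfactory receptor genes, most of which the cerebellum is not known to use, gave 2 higher and 0 lower, but 33 had a positive difference and the list median was 0.17, with 0.19, 0.15 and 0.15 on the 3 Ctm arrays and -0.18 to 0.08 on the 6. After a renewed quantile normalisation that median was 0.09.

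Lists that mark dissection or the state of an animal at death differed between arrays. Of 19 choroid plexus genes 0 were called, and the list medians were 0.58, 0.38 and -1.98 on the Ctm arrays and -2.70 to 1.09 on the 6. Ttr, its most abundant transcript, read 12.06, 12.08 and 8.81. Limma called 0 of 17 glucocorticoid response genes as well, with medians of -0.51, -0.05 and -0.18 on the Ctm arrays against -0.17 to 0.32. Immediate early genes had medians of -0.32, 0.29 and 0.11. Of 25, 2 were higher (8.0%) and 2 lower (8.0%), close to the 7.32% and 8.84% of all genes. Of 4 Y-linked genes 2 were lower: Eif2s3y read 5.73, 5.07 and 4.57 against 5.61 to 6.31 and Uty 3.54, 2.83 and 2.84 against 3.17 to 3.74. In both genes array 1 lay inside the range and arrays 2 and 3 below it. Xist read 2.18, 1.95 and 1.98 against 1.28 to 1.87, below the median of its array in every case, and Eif2s3y was above that median on all 9 arrays.

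Array by array, the departures from the knock-in wild types were not alike. Counting genes more than 1 below the mean of the 6, Ctm array 1 held 74 (0.407%), array 2 265 (1.46%) and array 3 311 (1.71%). The reference arrays, each set against the mean of the rest, held 2 to 44. Genes more than 1 above the same means numbered 31, 30 and 30 on the Ctm arrays (0.17%, 0.165% and 0.165%) and 5 to 33 on the reference arrays. At this threshold the excess was thus on the low side. At a departure of 0.6 it was on both sides. Genes above numbered 459, 326 and 515 on the Ctm arrays, beside 81 to 259 on the reference arrays. Genes below numbered 517, 822 and 840, beside 107 to 238. On the Ctm knockouts 36 to 70 genes were more than 1 below and 16 to 26 more than 1 above.

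**Figure D4:**
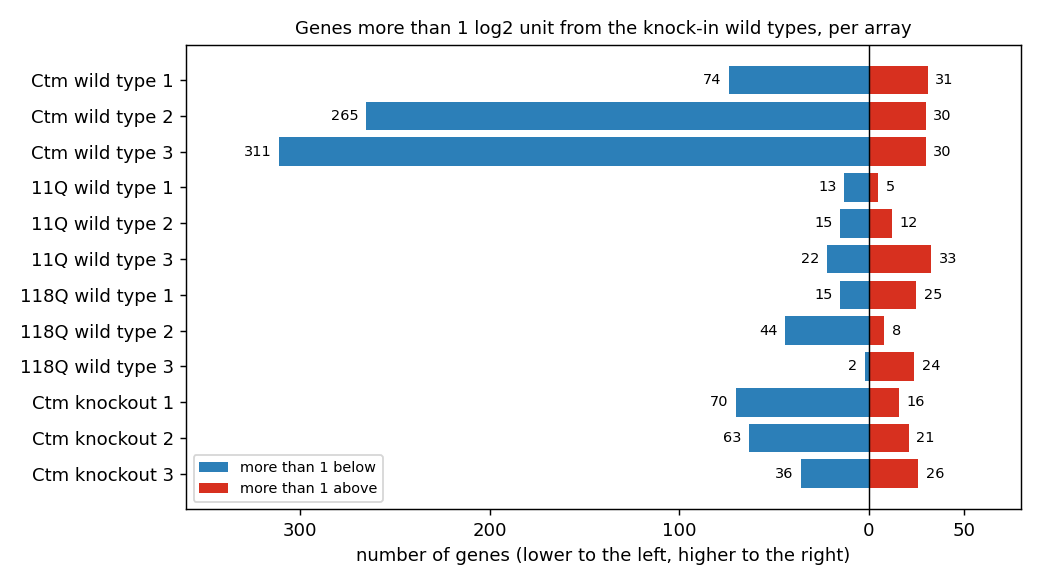
Number of genes more than 1 log2 unit below (blue, left) or above (red, right) the mean of the 6 knock-in wild types, for each wild-type array and each Ctm knockout array. Each knock-in wild-type array is set against the mean of the rest. Ctm wild-type arrays 2 and 3 have 265 and 311 genes below, and every other array shown has 74 or fewer.

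Over the 1608 called lower genes the median deviation was -0.41 on array 1, -0.56 on array 2 and -0.55 on array 3, and over the 1331 called higher genes 0.45, 0.42 and 0.48. These sets were chosen on the same values, so their medians only describe how the call was shared. Array 1 was the nearest to the reference in 924 of the lower genes, against 343 and 341 for arrays 2 and 3, and in 470 of the higher genes, against 550 and 311. It lay inside the range of the 6 in 375 called genes (12.8%), of which 260 were lower, while arrays 2 and 3 did so in 193 and 155. The 8 of these with the largest differences were Zfp995, Zfp943, Prpf39, Zfp729a, Zfp944, Zfp994, Zfp942 and Vamp7, a vesicle SNARE gene on the X chromosome. Vamp7 read 6.38 on array 1, inside the range of 6.09 to 6.80, and 4.25 and 4.60 on arrays 2 and 3 (difference -1.37, SE 0.29, limma adjusted p = 0.00423). Over the same gene sets the Ctm knockouts, set against the same 6 reference arrays, had medians of -0.37 to -0.23 and 0.28 to 0.30. The reference arrays were each set against the mean of the rest. Array 3 of the 11Q and of the 118Q wild types had medians of 0.16 and 0.15 over the lower genes. Over the higher genes these were -0.20 and -0.11. The other reference arrays ran from -0.12 to -0.04 and from 0.06 to 0.10.

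The lower genes differed from the rest in genomic span, mean level and chromosome. Over the 18032 genes with a RefSeq gene model, the share called lower was 2.05% in the quintile with the shortest genomic span (up to 6.30 kb), then 3.97%, 7.57% and 13.4%, and 17.2% in the quintile above 64.2 kb. The share called higher went from 8.10% to 5.68%. Across genes, span and difference had a Spearman rho of -0.218, and genes are not independent replicates. By mean level 10 genes were lower in the dimmest quintile (0.275%), then 91 (2.50%), 420 (11.5%) and 547, and 540 in the brightest (14.8%), so dim probe sets gave few of them. The share called higher was also smallest in the dimmest quintile, at 2.80%, and was 8.19% to 8.85% in the others. Mean level includes the tested arrays and also served to choose each gene's probe set. On the X chromosome 115 of 617 genes were lower (18.6%) and 18 higher, while on chromosome 7 64 of 1413 were lower (4.53%) and 152 higher (10.8%). Among the autosomes and the X these were the highest and the lowest share called lower, picked after the values were seen.

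**Figure D5:**
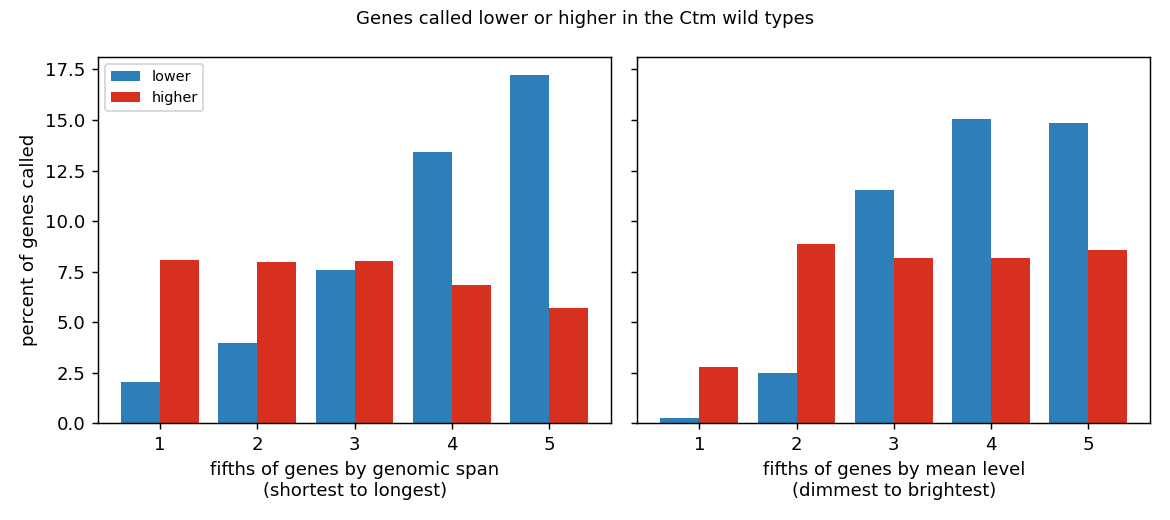
Percent of genes called lower (blue) or higher (red) in the Ctm wild types, in quintiles of genes by genomic span (left) and by mean log2 level over all 18 arrays (right). The share called lower climbs from 2.05% to 17.2% with span, and the share called higher does not.

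Different probe sets of a gene did not always give the same picture. Of 1202 lower genes with several probe sets, 459 had another one called lower (38.2%) and 115 one called higher (9.57%). Of 704 such higher genes, 181 had another one called higher (25.7%) and 29 one called lower (4.12%). Rhobtb3, a gene picked after its values were seen, was 0.47 lower on its brightest probe set and 1.27, 1.40 and 1.52 higher on 3 dimmer ones. On the dimmest of these the Ctm arrays read 2.47, 2.24 and 2.22 against 0.81 to 1.03 on the 6.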

How the data were processed

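RNA of cerebellum was measured on Affymetrix arrays. The authors deposited log2 values per probe set after RMA, per the submitters' processing notes, so background correction and normalisation across arrays preceded all steps here; no version or genome build is given in the sources used here. Of 45101 probe sets, 64 are array controls and 34945 carry a single gene symbol in the platform annotation; the brightest over 18 arrays stood for each of 18193 genes. Arrays have no read depth, and their number limits the precision.

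Groups came from the labels. Limma 3.58.1 in R 4.3.3 fitted a mean per group over all 18 arrays (12 residual degrees of freedom), and the mean of the Ctm wild types was contrasted with the mean of the 11Q and 118Q wild types, with Benjamini-Hochberg adjustment over all genes and a threshold of 0.05. Array measures were compared by exact permutation. Deviations of an array are from the mean of the 6 knock-in wild types. Tested on simulated data for this contrast over 18193 genes, the fit recovered 95 of 100 genes shifted by 1 and 99 of 100 shifted by 2, with 15 false calls. The simulated noise was independent between genes and arrays. The called differences in the data were mostly smaller, with medians of -0.51 and 0.44, so these rates do not carry over to them. Python 3.11.15, pandas 2.3.3, numpy 2.4.6, scipy 1.17.1 and matplotlib 3.10.9 were used. Gene spans, gene order and promoter sequences are from RefSeq GRCm38.p6, matched by Entrez identifier for 18032 genes.

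Genes are named by rule: among called genes whose groups do not overlap, the 12 largest falls, the 12 largest rises and the 8 with the largest smallest deviation; the 8 largest with Ctm array 1 inside the reference range; up to 4 called members of each list; and Cacna1a and Cacnb4. Predicted loci are not named, the text describes only some of the genes the rule gives, and 1 result is not reported here. The members, lists and rules were chosen with earlier results of these data known. The histone list was updated to current symbols after the files were read, and the chromosome 17 run and its shared promoter letters were chosen after values were seen. Alternatives varied the arrays fitted, dim genes, probe sets, moderation, array weights, normalisation, RNA quality and Ttr as covariates, the reference line, a fold threshold, the replicate number as a block and the arrays left out.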

Additional observations from a re-analysis of the deposited data

Results flagged for a closer look

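Among the 6 knock-in wild types, array 2 of the 118Q line stood apart from the other 5 in Ttr, the main transcript of the choroid plexus, at 6.2728, against 11.83 to 11.94 on the others. The median of the choroid plexus list on the same array was -2.7011, against -0.11 to 1.09 on the others, each array being set against the mean of the rest. These were the 2 items of 66 array measures and list medians in which 1 of the 6 arrays was separated by more than Dixon's 95% limit, which chance exceeds in about 1 of 20 groups. The items share this tissue marker, and without this array the main comparison called 2740 genes, of which 2551 were among the 2939.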

How the results depend on the processing

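Of the 2939 genes called between the Ctm and the knock-in wild types (1331 higher, 1608 lower), fits of the 9 wild-type arrays alone called 1861 (749 higher), a fold change of at least 1.5 left 863 (248 and 615), the 118Q wild types alone as reference gave 1648 (606 and 1042), and testing every probe set by itself gave 5800 (2720 and 3080). With 1 wild-type array left out the counts ran from 1640 to 3006, higher genes from 583 to 1403 and lower genes from 998 to 1641. The comparison with 11Q gave 1125, 945 and 4532 under the first, second and last of these settings and 1005 to 2469 with an array left out, and that with 118Q gave 641, 744 and 3427, and 553 to 2005. Between the 11Q and 118Q wild types 1 gene was called without the dimmer 50% of genes, 1 with trend and robust moderation, 1 after a renewed quantile normalisation, 2 with array weights, and 0 to 2 with an array left out. The cause of these shifts was not tested, beyond the fewer arrays or larger number of tests that some settings have by construction.

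With the mean of probe sets, 1929 of the 2939 calls kept their call and direction and 117 had the opposite sign; among the 191 named genes with a call, 138 kept it, 49 lost it and 4 reversed: Kcnma1 (-0.0596), Hsd17b7 (0.0096), Hnrnph1 (4.94e-05) and Hnrnpd (-0.1751). At a departure of 0.6 in place of 1, Ctm array 1 held 459 genes above and 517 below, array 2 326 and 822, and array 3 515 and 840; among the brighter 50% of genes array 1 held 18 and 40 and array 3 19 above. The interquartile range of the Ctm arrays was lower by -0.1161 to -0.1607 with an array left out, and its exact permutation p of 0.0357 reached 0.1429. The median of the potassium channel list turned negative after a renewed quantile normalisation and without the dimmer 50% of genes.

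The replicate number as a block gave 2958 calls, of which 2804 were among the 2939. In a check of pairing, same-numbered wild-type arrays of different groups had a median r of 0.041 (from -0.149 to 0.412, 9 pairs). This r is not that of the log2 values themselves, whose median was 0.9888 between Ctm and knock-in wild types. For other-numbered arrays the median r was -0.039 (from -0.378 to 0.303, 18 pairs). The ranges overlap, and so few pairs cannot decide whether the numbers pair the samples.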
